A study of Mus musculus with 17 samples.

Results

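The 10 genes described here encode the mouse Fc gamma receptors, the adaptor chain they signal through and the C-type lectins of myeloid cells: Fcgr1, Fcgr3, Fcgr4, Fcer1g, Fcgr2b, Clec7a, Clec4n, Clec4d, Clec4e and Clec12a. They were taken by gene symbol from the 55421 genes of the deposited count table, 1 row each, and all 10 passed the filter on low counts that left 10481 genes. Total RNA-Seq was performed on cultures from the lungs of 17 mice, all of the genotype Ephb4f/f;Col1a2-CreERT2. Ephb4 CKO mice received 4-hydroxytamoxifen (1 mg/day on 5 days) at 4 weeks of age and Ephb4 control mice received corn oil, and at 6 weeks the mice were instilled with bleomycin (1.2 U/kg), which causes lung injury and then fibrosis, or with PBS. The groups were Ephb4 control PBS (n = 4), Ephb4 control bleomycin (n = 4), Ephb4 CKO PBS (n = 5) and Ephb4 CKO bleomycin (n = 4). Lungs were taken on day 14, and the cells were grown in serum-containing medium and passaged once before RNA extraction. The Cre is driven by Col1a2, so Ephb4 was targeted in cells that express Col1a2, such as fibroblasts, and the Ephb4 control mice carried the same alleles without tamoxifen. No group received 4-hydroxytamoxifen without the deletion, so deletion and 4-hydroxytamoxifen itself cannot be told apart.

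Fc gamma receptors bind the constant part of IgG and so couple antibody-coated particles to the phagocyte. The activating receptors need the gamma chain encoded by Fcer1g, whose ITAM motif recruits the kinase Syk, while the inhibitory receptor FcγRIIB carries an ITIM motif of its own that recruits phosphatases. The C-type lectins recognise fungal and mycobacterial sugars and products of dying cells: Dectin-1 (Clec7a) signals through its own hemITAM, Dectin-2 (Clec4n), MCL (Clec4d) and Mincle (Clec4e) signal through the gamma chain, and Clec12a is an ITIM-bearing inhibitory lectin that senses uric acid crystals. In the lung these genes are expressed mainly by macrophages, monocytes, neutrophils and dendritic cells.

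The promoters of the activating Fc gamma receptors are shown because these genes share a purine-rich element close to the start site. The searched letters were AGAGGAAG, which hold the GGAA core bound by PU.1, the ETS factor of myeloid cells. Both strands of the RefSeq promoter windows (GRCm38.p6) were searched, and 9 of the 10 genes had an entry. Each line runs from 120 bases before to 10 bases after the start site in the direction of transcription, with matches in capitals. They lie at chr3:96293960-96294089 (minus strand), chr1:171059394-171059523 (minus strand) and chr1:171018806-171018935 (plus strand).
Fcgr1: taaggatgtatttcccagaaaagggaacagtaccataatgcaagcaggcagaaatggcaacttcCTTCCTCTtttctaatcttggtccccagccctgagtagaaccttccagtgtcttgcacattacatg
Fcgr3: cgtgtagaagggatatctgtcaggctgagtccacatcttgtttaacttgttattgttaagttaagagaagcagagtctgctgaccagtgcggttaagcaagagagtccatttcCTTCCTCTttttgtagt
Fcgr4: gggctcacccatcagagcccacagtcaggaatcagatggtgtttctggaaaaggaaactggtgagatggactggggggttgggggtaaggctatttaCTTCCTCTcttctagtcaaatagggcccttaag

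In all 3 promoters AGAGGAAG was read on the opposite strand, as CTTCCTCT, and began 56 bases (Fcgr1), 7 bases (Fcgr3) and 23 bases (Fcgr4) before the start site. The RefSeq start site of Fcgr3 lies inside the gene as positioned by GENCODE M21, whose Fcgr3 span begins further upstream, at chr1:171064935. Clec4d was the only other match among the 9 genes, 241 bases before the start site. Of all 32851 promoters, 4.55% held AGAGGAAG. A match of letters is a description and does not show that a factor binds there.

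Fcgr2b, Fcgr4, Fcgr3 and Fcer1g lie within 275.7 kb of chromosome 1, and Fcgr1 lies alone on chromosome 3. The lectins are on chromosome 6, where Clec4n, Clec4d and Clec4e are neighbours (gaps of 15.1 and 6.5 kb) and Clec12a and Clec7a lie 96.3 kb apart. Positions are those of GENCODE M21 on GRCm38, which lists Clec7a as a polymorphic pseudogene and the other 9 genes as protein coding. Fcgr2b and Fcgr3 are close paralogs: of all pairs among the 10 genes, only their transcripts shared stretches of 75 bases, the read length (94 of them, 1.63% of those in Fcgr2b transcripts and 5.42% of those in Fcgr3 transcripts). The longest identical run of their longest coding transcripts was 129 bases, inside the coding part of both, and is shown because reads from it could be given to either gene.
Fcgr2b and Fcgr3: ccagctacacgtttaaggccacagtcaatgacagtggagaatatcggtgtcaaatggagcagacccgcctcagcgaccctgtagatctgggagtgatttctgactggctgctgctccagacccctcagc

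Library totals ranged from 66540022 to 120554468 counts. Ephb4 itself, counted over the whole gene, lay between 13.1 and 65.1 CPM (counts scaled to a common library size with TMM factors) in Ephb4 control bleomycin and between 4.93 and 14 CPM in Ephb4 CKO bleomycin, and between 2.32 and 33.4 CPM and 4.01 and 23.6 CPM in the corresponding PBS groups, so that the genotypes overlapped in both. In 3 libraries (Ephb4 control bleomycin mouse 2, Ephb4 CKO bleomycin mice 1 and 2) the sex-linked genes went against the labelled sex, and results are given without them below. The cultures are labelled as primary fibroblasts. The summed level of the 14 fibroblast markers was 7150 to 14700 CPM in Ephb4 control bleomycin, but 58.7 to 8870 CPM in Ephb4 control PBS. It was 120 to 2630 CPM in Ephb4 CKO PBS and 105 to 2500 CPM in Ephb4 CKO bleomycin. Tcf21 was at 0 counts in 3 libraries, but it was near the floor in all (at most 2.86 CPM). The 19 macrophage markers summed to 1610 to 23000 CPM in Ephb4 control bleomycin, 11600 to 51200 CPM in Ephb4 control PBS, 26700 to 50100 CPM in Ephb4 CKO PBS and 28400 to 47200 CPM in Ephb4 CKO bleomycin. In these bulk libraries, fewer cells of a type and less RNA per cell cannot be told apart.

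Per length of the longest coding transcript, Clec7a was the most abundant of the 10 genes by the median over the 17 libraries, 803 CPM per kb. It was above Fcgr3, the next in the order, in 13 of 17 libraries. Fcgr3 (415 CPM per kb) and Fcer1g (407 CPM per kb) followed, then Clec4n (196), Clec4d (161) and Fcgr4 (155), then Clec4e (33.3), Fcgr2b (23.7), Fcgr1 (7.05) and Clec12a (4.8 CPM per kb). Fcgr3 was above Fcer1g in 7 of 17 libraries, Clec4n above Clec4d in 9 and Clec4d above Fcgr4 in 8, so these neighbours in the order did not separate. Fcer1g was above Clec4n in 17 of 17 libraries and Fcgr2b above Fcgr1 in 16. The spread between mice was unequal: the SD of log2 CPM within groups was 0.69 for Fcgr3, 0.98 for Fcer1g and 1.01 for Clec7a, but 1.93 for Clec4e, 2.03 for Fcgr1 and 2.33 for Clec12a.

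**Figure D1:**
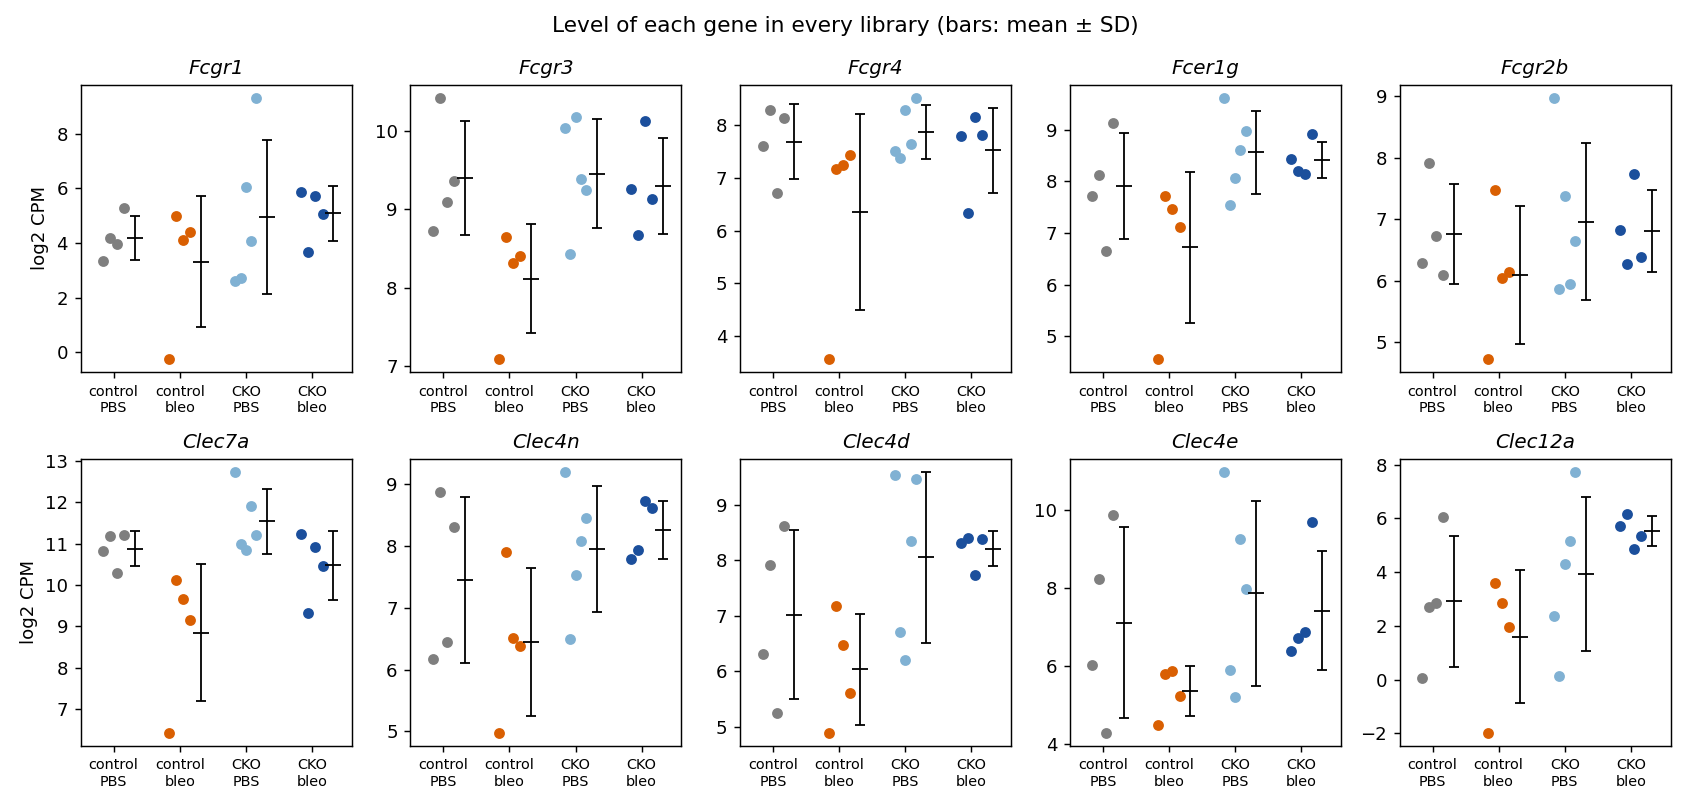
Each panel shows 1 gene, each point is 1 library, and the vertical axis is log2 CPM (prior count of 2); bars are the mean ± SD of each group of 4 or 5 libraries. The lowest orange point in each of the 10 panels is Ephb4 control bleomycin mouse 1, which is also the lowest of the 17 libraries in 9 of them, and the highest light blue points of Fcgr1 and Clec12a are Ephb4 CKO PBS mouse 5.

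Among the activating receptors, Fcgr3 (chr1:171051174-171064935), the low-affinity receptor of macrophages, was at 421, 1370, 545 and 658 CPM in Ephb4 control PBS mice 1 to 4 and at 136, 400, 318 and 339 CPM in Ephb4 control bleomycin mice 1 to 4. It was at 1050, 346, 1160, 665 and 607 CPM in Ephb4 CKO PBS and at 613, 408, 1120 and 560 CPM in Ephb4 CKO bleomycin. All 4 Ephb4 control bleomycin libraries thus lay below all Ephb4 control PBS and all Ephb4 CKO bleomycin libraries, although the gap was narrow in the latter case (400 against 408 CPM).

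Fcgr1 (chr3:96282909-96293969), the high-affinity IgG receptor, was low in all but 1 culture. It was at 10, 18.3, 15.6 and 38.7 CPM in Ephb4 control PBS, at 0.819, 32, 17.2 and 21.2 CPM in Ephb4 control bleomycin and at 58.3, 12.7, 52.8 and 33.6 CPM in Ephb4 CKO bleomycin. In Ephb4 CKO PBS it was at 6.09, 6.56, 66.3 and 16.7 CPM in mice 1 to 4 and at 635 CPM in mouse 5. That library was 775-fold above the lowest of the 17 and set the mean of its group, whose median was 16.7 CPM. Fcgr4 (chr1:171018920-171029761), which binds IgG2a and IgG2b with intermediate affinity, was between 81.3 and 368 CPM in 16 libraries and at 11.7 CPM in Ephb4 control bleomycin mouse 1.

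The gamma chain gene Fcer1g (chr1:171229572-171234365) was at 210, 278, 100 and 562 CPM in Ephb4 control PBS and at 23.6, 211, 177 and 139 CPM in Ephb4 control bleomycin. In Ephb4 CKO PBS it was at 780, 186, 269, 387 and 501 CPM, and in Ephb4 CKO bleomycin at 342, 293, 282 and 481 CPM. The 4 Ephb4 CKO bleomycin libraries all lay above the 4 Ephb4 control bleomycin libraries, whereas both PBS groups overlapped with every other group.

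Fcgr2b (chr1:170958617-170976547), the inhibitory receptor, was between 58.1 and 242 CPM in 15 libraries, at 26.5 CPM in Ephb4 control bleomycin mouse 1 and at 502 CPM in Ephb4 CKO PBS mouse 1. No pair of groups was separated by its level. The difference log2 Fcgr2b minus log2 Fcgr3, which compares the inhibitory with an activating receptor within a library, was -2.64 ± 0.42 (SD, n = 4) in Ephb4 control PBS, -2.02 ± 0.56 (SD, n = 4) in Ephb4 control bleomycin, -2.49 ± 0.87 (SD, n = 5) in Ephb4 CKO PBS and -2.49 ± 0.17 (SD, n = 4) in Ephb4 CKO bleomycin. The difference between both Ephb4 control groups was 0.62 (exact permutation test, two-sided, p = 0.0286, the smallest that 4 against 4 mice allow; 0.0572 after Benjamini-Hochberg adjustment over the 4 comparisons made). Ephb4 CKO bleomycin minus Ephb4 control bleomycin was -0.47 (exact permutation test, two-sided, p = 0.0286; adjusted 0.0572), and neither passed the adjusted threshold. The groups nearly met: the lowest Ephb4 control bleomycin value and the highest Ephb4 control PBS value were both -2.36 as rounded, and the highest Ephb4 CKO bleomycin value was -2.39. How reads of the shared stretch were divided between both genes enters this measure.

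Of the lectins, Clec7a (chr6:129461591-129472779), the beta-glucan receptor Dectin-1, was at 1810, 2320, 1260 and 2350 CPM in Ephb4 control PBS and at 86.2, 1110, 814 and 571 CPM in Ephb4 control bleomycin. It was at 6830, 2050, 1830, 3870 and 2370 CPM in Ephb4 CKO PBS and at 2410, 646, 1920 and 1400 CPM in Ephb4 CKO bleomycin. Every Ephb4 control bleomycin library was below every library of both PBS groups, and the bleomycin groups overlapped through Ephb4 CKO bleomycin mouse 2.

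Clec4d (chr6:123262111-123275265), the partner of Mincle, was at 79.8, 240, 37.8 and 393 CPM in Ephb4 control PBS and at 29.6, 144, 89.5 and 48.5 CPM in Ephb4 control bleomycin. It was at 752, 104, 74, 326 and 708 CPM in Ephb4 CKO PBS and at 319, 339, 214 and 333 CPM in Ephb4 CKO bleomycin. Ephb4 CKO bleomycin lay wholly above Ephb4 control bleomycin and was narrowly spread for its level (301 ± 59 CPM, SD, n = 4, against 77.9 ± 50.7 CPM). Its neighbour Clec4n (chr6:123229843-123247021), the mannan receptor Dectin-2, was at 31.6, 241, 91.3 and 83.5 CPM in Ephb4 control bleomycin and at 222, 245, 423 and 391 CPM in Ephb4 CKO bleomycin, with an overlap of 1 library, and between 72.4 and 587 CPM in the PBS groups.

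Clec4e (chr6:123281789-123289870), the inducible receptor Mincle, was at 22.8, 56.1, 58.8 and 37.7 CPM in Ephb4 control bleomycin and at 83.9, 106, 117 and 826 CPM in Ephb4 CKO bleomycin. In Ephb4 control PBS it was at 65.6, 300, 19.6 and 929 CPM, and in Ephb4 CKO PBS at 2000, 59.8, 36.9, 609 and 252 CPM. Within the PBS groups the level thus spanned the full range of the 17 libraries, from 19.6 CPM in Ephb4 control PBS mouse 3 to the highest value in Ephb4 CKO PBS mouse 1. Clec12a (chr6:129342691-129365303) was at 0.232, 12, 7.18 and 3.82 CPM in Ephb4 control bleomycin and at 52.8, 71.6, 28.9 and 40.2 CPM in Ephb4 CKO bleomycin, again without overlap. It was at 1.03, 6.5, 7.15 and 66.1 CPM in Ephb4 control PBS and at 5.08, 1.07, 19.5, 35.4 and 213 CPM in Ephb4 CKO PBS, so that both PBS groups overlapped with both bleomycin groups.

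To examine the effect of bleomycin on these genes in Ephb4 control mice, bleomycin was compared with PBS. All 10 genes had a negative log2 fold change, with a median of -1.17, against a median of -0.06 over all 10481 genes, of which 55.5% were negative. Of the 19 macrophage markers 18 passed the filter, and 17 of these were negative and 1 positive, with a median of -1.06. By edgeR's quasi-likelihood test 0 of the 10 genes passed an adjusted p of 0.05, as did 0% of all genes, and by DESeq2 0 of the 10 did, against 1.6% of all genes. At an unadjusted p under 0.05, 3 of the 10 genes were lower (Fcgr3, Clec7a and Clec4e), where 7.98% of all genes were. The largest differences were those of Clec4e (log2 fold change -2.91 ± 1.3, SE; adjusted p = 0.338) and Clec12a (-1.8 ± 1.4; adjusted p = 0.541). Both rested on Ephb4 control PBS mouse 4, without which they were -1.55 and 0.24, and Clec12a was also positive with quality weights (0.64) and with a covariate for the series of animal numbers (1.16). Clec7a differed by -1.58 ± 0.62 (adjusted p = 0.323) and Fcgr3 by -1.33 ± 0.47 (adjusted p = 0.315). For these 2 genes the groups did not overlap, which was so for 3.2% of all genes in this direction. Their p of 0.0286 (exact permutation test, two-sided) is the smallest possible, follows from the separation and adds nothing to it. The values of Clec4d (-1.27), Clec4n (-1.07), Fcer1g (-1.06), Fcgr4 (-0.9), Fcgr2b (-0.54) and Fcgr1 (-0.21) had adjusted p-values from 0.418 to 0.945.

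Ephb4 CKO bleomycin was then compared with Ephb4 control bleomycin, the group that the preceding comparison also used. All 10 genes had a positive log2 fold change, with a median of 1.32, against 0.01 over all genes, of which 50.7% were positive. The macrophage markers that passed the filter moved alike: 18 of 18 were positive, with a median of 1.23. edgeR called 0 of the 10 genes at an adjusted p of 0.05 (0% of all genes) and DESeq2 called 0 of the 10 (3.84% of all genes). At an unadjusted p under 0.05, 4 of the 10 genes were higher (Fcgr3, Fcer1g, Clec4n and Clec4d), where 11% of all genes were. The groups did not overlap for 5 of the 10 genes, Fcgr3, Fcer1g, Clec4d, Clec4e and Clec12a, and for 11% of all genes in this direction. Any such separation of 4 against 4 mice gives p = 0.0286 (exact permutation test, two-sided), so this p adds nothing to the separation itself. The gamma chain gene Fcer1g differed by 1.35 ± 0.61 (SE; adjusted p = 0.238) and the lectins that signal through it by 1.52 ± 0.69 (Clec4n; adjusted p = 0.241), 1.95 ± 0.79 (Clec4d; adjusted p = 0.223) and 2.69 ± 1.29 (Clec4e; adjusted p = 0.25), the last being 1.22 without Ephb4 CKO bleomycin mouse 4. Clec12a had the largest value, 3.06 ± 1.46 (adjusted p = 0.25), and Fcgr3 differed by 1.18 ± 0.47 (adjusted p = 0.22). Fcgr1, Fcgr4 and Fcgr2b had values of 1.14, 0.76 and 0.52 and adjusted p-values from 0.449 to 0.665.

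**Figure D2:**
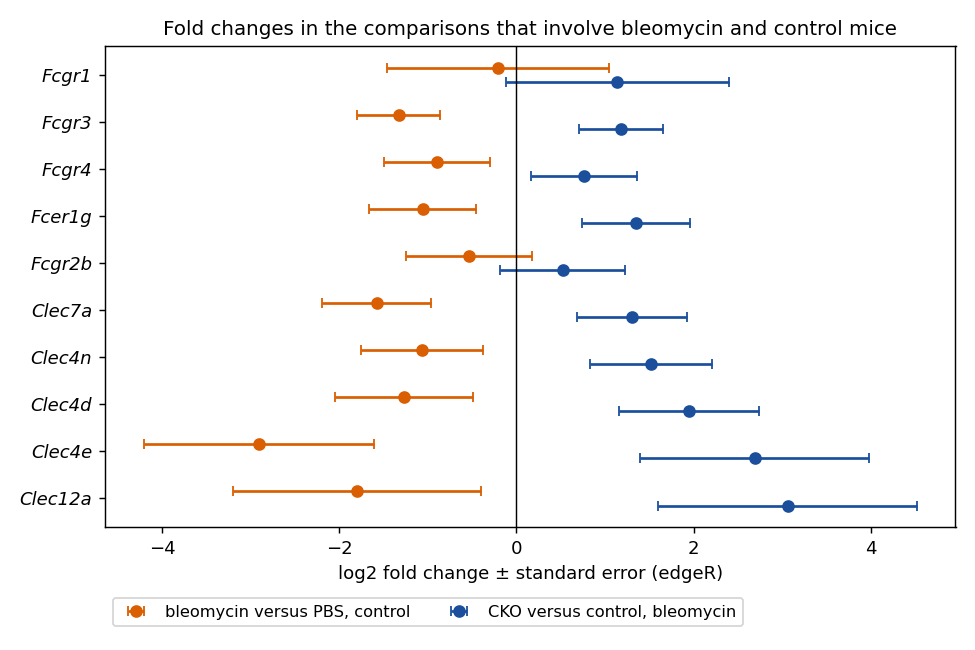
Log2 fold changes (horizontal axis) with standard errors from the edgeR fit for the bleomycin response of Ephb4 control mice (orange) and for Ephb4 CKO versus control after bleomycin (blue). The orange values lie between -2.91 and -0.21 and the blue values between 0.52 and 3.06, and both comparisons use the 4 Ephb4 control bleomycin libraries.

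Both comparisons were repeated without single libraries and with library weights. Ephb4 control bleomycin mouse 1 was the lowest of the 17 libraries for 9 of the 10 genes, and its macrophage markers averaged 4.95 log2 CPM, where the other 16 libraries were between 7.61 and 10.08. Without it, the genotypes differed after bleomycin by a median log2 fold change of 0.92, and 0 of the 10 genes had an unadjusted p under 0.05. A fit with limma voom gave each of the 17 libraries a quality weight. The weight was 0.236 for this library, 1.07 for Ephb4 control bleomycin mouse 2, 8.25 (the highest) for mouse 3 and 7.2 for mouse 4. Mice 3 and 4 thus carried most of the weight of that group. With these weights 6 of the 10 genes, Fcgr3, Fcer1g, Clec7a, Clec4n, Clec4d and Clec12a, were higher in Ephb4 CKO bleomycin at an adjusted p of 0.05. Their adjusted p-values in this voom fit ran from 0.00292 (Clec4d) to 0.00838 (Fcgr3), and 21.2% of all genes were higher at this threshold. The same weights moved the median of the bleomycin response of Ephb4 control mice from -1.17 to -0.47, with 8 of the 10 genes negative and 2 positive. Without the 3 libraries whose sex-linked genes went against the labels, the median was 1.72 and 3 of the 10 genes had an unadjusted p under 0.05.

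Technical groupings were examined within the same comparison. The columns of the deposited table form 2 sorted runs of 8 and 9 libraries, a stand-in for the 2 sequencing groups, whose members are not named. The median difference of mean log2 CPM was 1.1 in the first run and 2.18 in the second, each with 2 against 2 mice and positive for 10 of 10 genes. Among animals of number series 12 it was 1.43, with 2 against 4 mice. For the bleomycin response of Ephb4 control mice the runs differed more, with a median of -0.36 (8 of 10 genes negative) in the first run and -2.39 (10 of 10) in the second. The Ephb4 control bleomycin mice were all of series 12, where the median was -0.44 against the single PBS mouse of that series.

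In the absence of bleomycin, Ephb4 CKO was compared with control to examine deletion alone. All 10 genes had positive values with a median of 0.69 (all genes, -0.02), between 0.04 and 2.82 ± 1.3 (SE) for Fcgr1. Of the macrophage markers, 17 were positive and 1 negative, with a median of 0.43. edgeR called 0 of the 10 at an adjusted p of 0.05 (0% of all genes), DESeq2 called 0 (0.00962% of all genes), and at an unadjusted p under 0.05 Fcgr1 alone was higher, where 1.43% of all genes were. Without Ephb4 CKO PBS mouse 5, the log2 fold change of Fcgr1 was 0.21. Each of the 10 genes overlapped between both PBS groups.

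In Ephb4 CKO mice, bleomycin versus PBS gave a median log2 fold change of -0.33 (all genes, -0.03), between -1.89 and 0.11. By edgeR 0 of the 10 genes passed an adjusted p of 0.05 (0% of all genes), 0 passed an unadjusted p under 0.05 in either direction (0.716% of all genes were lower and 0.248% higher), and DESeq2 called 0 of the 10 (0.00962% of all genes). The interaction of genotype and bleomycin, which tests whether the bleomycin response differed between genotypes, had a median of 0.83 over the 10 genes and was positive for 8 of them. It passed for 0 of the 10 genes by edgeR (0% of all genes) and DESeq2 (0% of all genes), and 0 of the 10 had an unadjusted p under 0.05 (1.89% of all genes were higher and 1.57% lower). A difference in the bleomycin response between the genotypes was thus not shown for these genes, and the smallest adjusted p was 0.916.

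The genes were then set against the macrophage markers, of which 18 of 19 passed the filter and none is among the 10 genes. Over the 17 libraries, Fcer1g followed the mean log2 CPM of these markers most closely (Pearson's r = 0.97, Spearman's rho = 0.99; r = 0.94 without Ephb4 control bleomycin mouse 1), and Clec4d, Clec4n, Clec12a and Clec4e had r = 0.84, 0.84, 0.79 and 0.67 (0.95, 0.82, 0.72 and 0.78 without that library). For Clec7a and the receptors the relation rested more on that library: r for Clec7a, Fcgr1, Fcgr3, Fcgr4 and Fcgr2b was 0.84, 0.73, 0.71, 0.87 and 0.54 with it and 0.56, 0.51, 0.46, 0.55 and 0.24 without it. These values describe libraries that share depth and composition and carry no test.

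**Figure D3:**
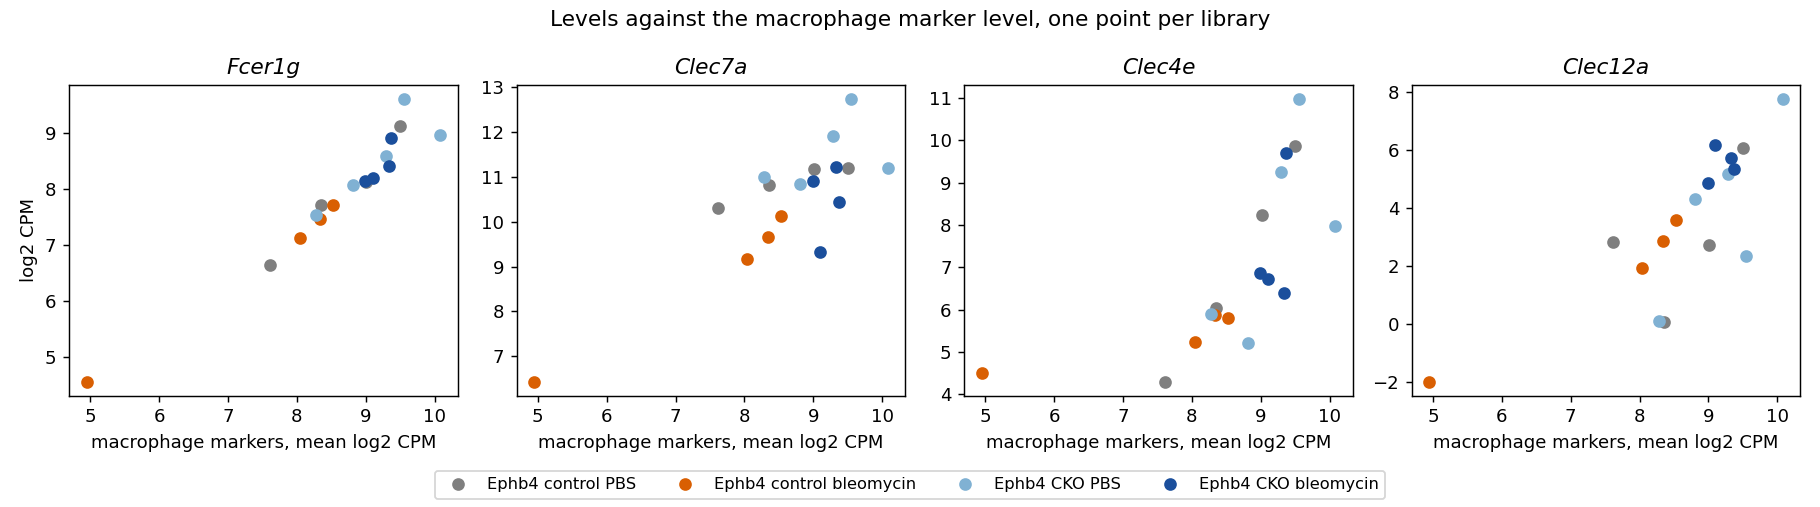
Each point is 1 library, coloured by group, with the mean log2 CPM of 18 macrophage markers on the horizontal axis and the log2 CPM of 1 gene on the vertical axis. Fcer1g lies along a line (r = 0.97), and Clec4e and Clec12a scatter widely. The Clec7a points of Ephb4 control bleomycin mice 2 to 4 lie below those of Ephb4 control PBS at a similar marker level. Mouse 1 of that group has a lower marker level (4.95) than any Ephb4 control PBS library.

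As a difference from the macrophage markers (log2 CPM minus their mean), Fcer1g differed between the 4 groups by less than its SD (-0.71 ± 0.27, -0.75 ± 0.24, -0.65 ± 0.43 and -0.78 ± 0.22 in Ephb4 control PBS, Ephb4 control bleomycin, Ephb4 CKO PBS and Ephb4 CKO bleomycin; mean ± SD). Clec7a was not: it was 2.26 ± 0.43 and 2.34 ± 0.79 in the PBS groups of control and CKO mice and 1.38 ± 0.2 and 1.28 ± 0.8 in their bleomycin groups. In Ephb4 control mice Clec7a was the 1 gene of the 10 whose bleomycin values (1.12 to 1.59) all lay below the PBS values (1.7 to 2.69), as for 0.124% of all genes. By another measure, the summed CPM, the 8 alveolar macrophage markers separated these groups, with 195 to 1240 CPM after bleomycin and 1500 to 8230 CPM after PBS. These sums are levels and were not taken relative to the macrophage markers. In Ephb4 CKO mice the sums overlapped (181 to 5550 CPM and 514 to 5090 CPM). The part of macrophage subtypes in the Clec7a difference was not tested. Clec12a was the 1 gene of the 10 that, relative to the markers, was higher in every Ephb4 CKO bleomycin library (-4.14 to -2.94) than in every Ephb4 control bleomycin library (-6.94 to -4.94), as for 0.0668% of all genes. The subtraction lowers most genes in this comparison, where 62.1% of all genes lay lower without overlap. With the marker level as a covariate in edgeR, the 10 genes had a median log2 fold change of -0.14 in the bleomycin response of Ephb4 control mice and of 0.32 between the genotypes after bleomycin. Clec7a then differed by -1.05 between bleomycin and PBS in Ephb4 control mice (adjusted p = 0.68) and by -1.05 in Ephb4 CKO mice (adjusted p = 1). Clec12a differed by 0.96 between the genotypes after bleomycin (adjusted p = 1). The part of macrophage abundance in the group differences was not tested beyond these values.

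Markers of other cell types that carry these receptors were low. The 8 dendritic cell markers summed to at most 57.9 CPM, the 5 B cell markers to at most 38.7 CPM, the 7 mast cell markers to at most 21.6 CPM and the 8 NK and T cell markers to at most 33.4 CPM. That last value was in Ephb4 CKO PBS mouse 5, the library with the highest Fcgr1 and Clec12a. The same library had the highest mean log2 CPM of the macrophage markers (10.08) and a B cell marker sum of 38.3 CPM. The 12 neutrophil markers summed to 25.4 to 309 CPM in 16 libraries and to 9600 CPM in Ephb4 CKO PBS mouse 1, which was highest for 6 of the 10 genes (Fcer1g, Fcgr2b, Clec7a, Clec4n, Clec4d and Clec4e). In that library Mmp8 made up 9490 CPM (at most 260 CPM in the others) and S100a8 was also at its highest (79.4 CPM, at most 30.6 CPM in the others). Over all libraries Ltf, Csf3r and Cxcr2 reached 65.6, 27.6 and 18 CPM, each in another library, and the other 7 markers, Ly6g, S100a9, Mpo, Elane, Retnlg, Camp and Ngp, reached at most 5.96 CPM. The part of these cells in the levels was not tested.

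Among each other the 10 genes had a median r of 0.67 over 45 pairs. The highest values were those of Clec4d with Fcer1g and with Clec4n (r = 0.88 for each), and Fcer1g had r = 0.87 with Clec4n, 0.86 with Clec7a, which does not need the chain, and 0.8 with Clec4e. Fcgr1 was most like Clec12a (r = 0.82) and least like Clec4e (r = 0.2), and Fcgr2b had r = 0.81 with Fcgr3 and 0.26 with Clec12a. The 5 other genes most like the mean of the 10 standardised profiles were Rinl, Trim30a, Irf8, Snx20 and Psd4 (Pearson's r from 0.97 to 0.98, Spearman's rho from 0.9 to 0.94, over 17 libraries). Irf8 encodes a transcription factor of monocytes and macrophages.

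**Figure D4:**
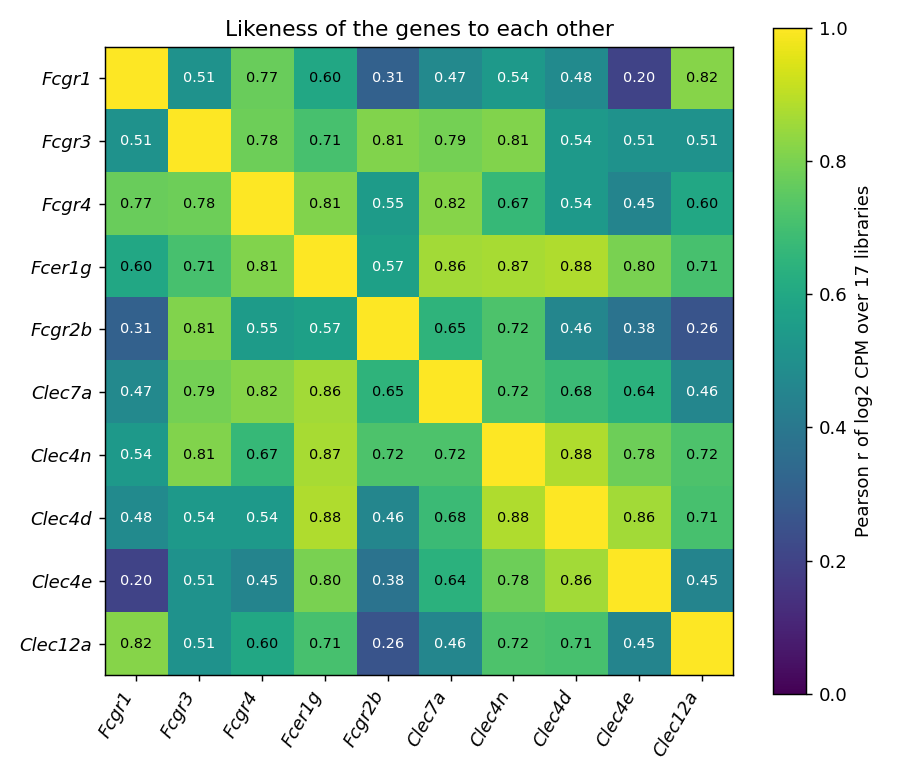
Pearson's r of log2 CPM over 17 libraries for each of the 45 pairs of genes, in the order receptors, gamma chain, inhibitory receptor and lectins; yellow is high. The values run from 0.2 (Fcgr1 with Clec4e) to 0.88 (Clec4d with Clec4n and Fcer1g).

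The signalling genes downstream of these receptors were counted from a list of 26, of which 25 passed the filter. In bleomycin versus PBS in Ephb4 control mice, 7 of the 25 were lower and 0 higher at an unadjusted p under 0.05 (7.98% and 6.28% of all genes), and the median log2 fold change was -0.81. The smallest p-values were those of Prkcd, the kinase that links Syk to Card9 (-1.19 ± 0.34, SE; adjusted p = 0.275), the cytokine gene Tnf (-3.4 ± 1.19; adjusted p = 0.315) and the adaptor Lcp2 (-1.39 ± 0.55; adjusted p = 0.323). In Ephb4 CKO versus control after bleomycin, 10 of the 25 were higher and 0 lower (11% and 9.18% of all genes), with a median of 1.08, and the smallest p-values were those of Prkcd (1.14 ± 0.34; adjusted p = 0.197), the transcription factor gene Nfatc1 (0.72 ± 0.23; adjusted p = 0.207) and Malt1, the protease that acts with Card9 and Bcl10 (1.83 ± 0.67; adjusted p = 0.218). No gene of the list passed an adjusted p of 0.05 in edgeR. In the PBS comparison of the genotypes 0 of the 25 had an unadjusted p under 0.05, in Ephb4 CKO mice 1 was lower after bleomycin (0.716% of all genes were), and the interaction was positive at an unadjusted p under 0.05 for 2 (1.89% of all genes). The lower gene was Il1b (-4.55 ± 2.11, SE; adjusted p = 1), which was at 3680 CPM in Ephb4 CKO PBS mouse 1 and at most 186 CPM in the other 16 libraries.

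Of 30 other myeloid lectins and Fc receptors, 17 passed the filter. In bleomycin versus PBS in Ephb4 control mice, 3 of the 17 were lower and 1 was higher at an unadjusted p under 0.05 (7.98% and 6.28% of all genes), and the median log2 fold change was -0.69. The higher gene was Fcrls, an Fc receptor-like gene of macrophages and microglia (5.84 ± 1.94, SE; adjusted p = 0.303), and the other smallest p-values were those of Clec1b, the podoplanin receptor CLEC-2 (-2.5 ± 0.9; adjusted p = 0.315), and the lectin receptor gene Cd302 (-1.24 ± 0.5; adjusted p = 0.323). In Ephb4 CKO versus control after bleomycin, 2 of the 17 were higher and 0 lower (11% and 9.18% of all genes), with a median of 1.19, and the smallest p-values were those of Cd302 (1.35 ± 0.5; adjusted p = 0.218), Clec4a2, an inhibitory lectin of the same chromosome 6 family (1.97 ± 0.81; adjusted p = 0.223), and Fcrls (-3.72 ± 1.75; adjusted p = 0.248). Fcrls thus had the opposite sign to the 10 genes in both comparisons. Its level was low, with a median of 0.648 CPM over all libraries, 0 counts in 2 of them and at most 42.2 CPM. In the other 3 comparisons 0 of the 17 had an unadjusted p under 0.05 in either direction.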

How the data were processed

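Total RNA-Seq counts of 17 cultures, each from 1 mouse, were used, grouped by the sample labels; mouse numbers follow the listing order. The authors trimmed reads with cutadapt (1.18 in the submitters' processing notes, another version in the study's methods), aligned them to GRCm38 with HISAT2 2.1.0, strand-specific, and derived the deposited whole-number counts per gene from StringTie coverage, without normalization, so how StringTie assigned coverage to overlapping transcripts enters each count. Here, genes with a CPM (by library total) above 10 in at least 2 samples were kept (10481 of 55421). Then edgeR 4.0.16 (quasi-likelihood, TMM, 1 mean per group, no covariate, Benjamini-Hochberg over all genes kept) was fitted to all 17 libraries in R 4.3.3. The code was also run on simulated counts with a fixed spread, smaller than that of the 10 genes. That run checks the code and does not show the power or error rate in these data. The study's batch term could not be repeated, since the labels name no batch per library. Standard errors are the fold change over the square root of F. Log2 CPM used a prior count of 2. Among single genes, only those whose groups did not overlap had a two-sided exact permutation test, so its p follows from that choice. The difference of Fcgr2b and Fcgr3 had the same test in 4 comparisons, whether or not its groups overlapped. Differences of other pairs (Clec4d and Clec4n, Fcgr1 and Fcgr3, Clec4e and Clec7a) were computed but not tested. Alternatives used DESeq2 1.42.0 (1 mean per group, or with the runs of columns), limma 3.58.1 voom, other size factors, filters and covariates, and left-out libraries.

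The text names all 10 genes, the 3 genes of each list with the smallest p in the bleomycin comparisons, and the 5 genes most like the mean profile. Of the lists' other genes, those named were chosen after their values were seen. The genes and lists were chosen with earlier results of these data known. The values relative to macrophage markers, the difference of Fcgr2b and Fcgr3 and the values within technical groupings were added after seeing the data. Library totals of 66540022 to 120554468 counts limit only the lowest genes; the lowest count of a member was 28 (Clec12a).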

Additional observations from a re-analysis of the deposited data

Results flagged for a closer look

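Each gene was examined in each of the 4 groups for a sample far from the others of its group on the log2 scale (Dixon's criterion), which chance meets in about 1 in 20 groups, and 4 of the 40 tests were met. In Ephb4 control bleomycin, mouse 1 lay far below the other 3 mice for Fcgr1 (0.819 CPM against 17.2 to 32 CPM) and for Fcgr4 (11.7 CPM against 144 to 172 CPM). In Ephb4 CKO bleomycin, mouse 3 was below the others for Clec4d (214 CPM against 319 to 339 CPM), and mouse 4 was above the others for Clec4e (826 CPM against 83.9 to 117 CPM).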

How the results depend on the processing

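No paired analysis was possible because the mouse numbers follow the listing order and tie no mice across groups. Over 14 alternatives the number of the 10 genes past the adjusted threshold was 0 in each comparison, except that voom with quality weights gave 6 for Ephb4 CKO versus control after bleomycin; without 1 mouse at a time it was 0 in each. The median log2 fold change moved by more than the SD between replicates (1.01) in 1 case, to -0.14 with the macrophage marker covariate for the bleomycin response of Ephb4 control mice. With that covariate the median for Ephb4 CKO versus control after bleomycin fell by nearly as much, just inside this limit. The limit exceeds the medians of the other comparisons and the interaction, so it could not flag their loss. Without 1 mouse at a time that median ran from -1.62 to -0.76, for Ephb4 CKO versus control from 0.92 to 1.66 after bleomycin and from 0.23 to 1.02 after PBS, for bleomycin versus PBS in Ephb4 CKO mice from -0.56 to -0.03, and for the interaction from 0.31 to 1.19.

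In the bleomycin response of Ephb4 control mice, Fcgr1 turned positive with quality weights (0.36) and with sex (0.25), number series (1.43) or macrophage markers (0.68) as a covariate, Clec12a with quality weights (0.64) and number series (1.16), and Clec4d with macrophage markers (0.02). With macrophage markers, Fcgr1 (-0.69), Fcgr4 (-0.31) and Fcgr2b (-0.2) turned negative for Ephb4 CKO versus control after bleomycin. Without 1 mouse at a time, Fcgr1 ran from -0.66 to 0.28, Clec12a from -2.43 to 0.24 and Fcgr2b from -1.19 to 0.02 in the former comparison. The count of 3 at an unadjusted p under 0.05 there was 1 with the number series or macrophage markers and without Ephb4 control PBS mouse 2 or Ephb4 control bleomycin mouse 4, and that of 4 after bleomycin was 7 by DESeq2, 0 with the macrophage markers or without Ephb4 control bleomycin mouse 1, 1 without Ephb4 control bleomycin mouse 4, 2 without Ephb4 CKO PBS mouse 4 or Ephb4 CKO bleomycin mouse 4, and 1 with the number series. Fitting only the groups compared gives no interaction. The cause was not tested.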
